A study of Mus musculus with 5 samples.

Results

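The B cell receptor complex and its first signalling steps were described through 7 genes, Cd79a, Cd79b, Cd22, Blnk, Btk, Syk and Lyn. They were chosen by name from 27998 genes in the tables, and all 7 were found in all 5 libraries. The libraries were single-cell RNA profiles of mouse bone marrow from the Nes-GFP strain, which carries a green fluorescent reporter and is common to both age groups. There were 3 libraries of young mice aged 10 to 12 weeks, replicates 1 to 3, and 2 of aged mice older than 20 months, replicates 2 and 3. Cells lacking CD45 and bearing CD31 were sorted from endosteal marrow, frozen and thawed, and RNA 3′ ends were read with barcodes for the cell and for the molecule (unique molecular identifiers, UMIs). The design calls the libraries biological replicates. How many mice each holds is not given in the sources used here.

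The B cell receptor is a membrane immunoglobulin that signals through a bound pair of chains, CD79A (Igα) and CD79B (Igβ). In the marrow the same pair first carries the pre-B cell receptor, in which a surrogate light chain takes the place of the light chain. LYN, a Src family kinase, phosphorylates the tails of both chains, and SYK then binds them and is activated. SYK phosphorylates the adaptor BLNK, which brings BTK, a Tec family kinase, to phospholipase C gamma. CD22 is a sialic acid-binding coreceptor that dampens the signal once LYN has phosphorylated it.

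The cells went against the label of the sort. Of 2116 barcodes that passed the quality filter, 1906 lay in B-lineage clusters and 18 were endothelial-like. The libraries held between 935656 and 5900751 UMIs, and the median of a kept cell lay between 1889.5 and 4212.5 UMIs. Young replicate 1 stood apart. Dividing cells made up 85.4% of its B lineage against 15.2% to 16.6% in the other 4 libraries, and it held 184 of the 210 cells outside the B lineage. UMIs of Xist, a transcript of the inactive X chromosome, were 0 in young replicate 2 and aged replicate 2 and between 2351 and 9912 in the other libraries. Kept cells of different libraries shared 5 barcode sequences.

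The 7 genes lie on 6 chromosomes of GRCm38 and all are protein-coding. Cd79a (ENSMUSG00000003379) spans chr7:24897381-24902197 on the plus strand and Cd79b (ENSMUSG00000040592) spans chr11:106311341-106314762 on the minus strand. Cd22 (ENSMUSG00000030577) lies at chr7:30865402-30880342 on the minus strand and Blnk (ENSMUSG00000061132) at chr19:40928927-40994535, also on the minus strand. Btk (ENSMUSG00000031264) spans chrX:134542336-134583570 on the minus strand, Syk (ENSMUSG00000021457) chr13:52583173-52648792 on the plus strand, and Lyn (ENSMUSG00000042228) chr4:3678115-3813122 on the plus strand. Cd22 and Btk each overlap 1 gene on the other strand and Lyn overlaps 4.

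RefSeq promoter windows on GRCm38.p6, from 250 bases before to 50 bases after a transcript start, were matched for 5 of the 7 genes. Those of Cd79a, a receptor chain, and Blnk, the adaptor, are shown because they alone of the 5 genes with a window hold the searched Ets letters. Cd79b and Lyn had no window to search. Cd79a and Blnk were also both lower per UMI in dividing than in Rag-positive cells, as were all 5 members tested. The Cd79a window lies at chr7:24897247-24897546 on the plus strand and that of Blnk at chr19:40994172-40994471 on the minus strand. The starts are those of RefSeq transcripts and differ from the gene positions given above. By those positions the Blnk window lies inside the gene and the Cd79a window partly inside it. Each is written 5′ to 3′ along the gene, with matches to the searched motifs in capitals.
Cd79a: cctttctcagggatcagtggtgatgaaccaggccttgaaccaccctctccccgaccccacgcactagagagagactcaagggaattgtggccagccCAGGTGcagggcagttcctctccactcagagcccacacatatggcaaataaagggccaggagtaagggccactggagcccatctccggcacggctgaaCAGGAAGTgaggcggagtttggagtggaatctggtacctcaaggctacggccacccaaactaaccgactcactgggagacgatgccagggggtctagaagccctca
Blnk: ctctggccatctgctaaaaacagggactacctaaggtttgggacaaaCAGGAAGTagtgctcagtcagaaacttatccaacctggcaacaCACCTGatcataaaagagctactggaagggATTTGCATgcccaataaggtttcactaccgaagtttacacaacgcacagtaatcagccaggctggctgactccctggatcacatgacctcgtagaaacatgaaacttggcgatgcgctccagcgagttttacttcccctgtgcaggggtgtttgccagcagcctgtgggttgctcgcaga
The motifs, searched on both strands, were CAGGAAGT (Ets family), ATGCAAAT (octamer), CAGGTG (E-box), CCCNNGGG (EBF1) and TGTGGT (Runx), and none overlaps another in these windows. The Cd79a window holds the Ets letters 56 bases before the start and the E-box letters 154 bases before it. The Blnk window holds the Ets letters 203 bases before the start, the octamer on the other strand as ATTTGCAT 130 bases before it, and the E-box on the other strand as CACCTG 160 bases before it. Of 32851 windows of this length, 3.33% hold the Ets letters, 20.2% the E-box and 1.74% the octamer, and 0.740% hold both Ets and E-box letters. The EBF1 letters (13.7% of windows) and the Runx letters (16.8%) are in neither. A match describes letters only and is not a measured site.

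B-lineage cells were divided by genes outside the 7, on counts thinned to 1000 UMIs a cell. Dividing cells (790) held at least 2 of 22 cell cycle genes. Of the others, 353 were surrogate light chain-positive (at least 2 UMIs of Vpreb1, Vpreb2, Igll1 and Dntt) and 235 were MHC class II-positive (at least 2 UMIs of Cd74, H2-Aa, H2-Ab1 and H2-Eb1). A further 122 cells were Rag-positive (a UMI of Rag1 or Rag2, the recombinase genes), 190 were Cd2/Ms4a1-positive, 10 were mixed and 206 were ungated. These gates are ranges of marker counts and not cell types. The surrogate light chain gate held 29 cells at its limit of 2 UMIs, the MHC class II gate 50, and 102 of the Rag-positive cells had a single UMI. The dividing gate held 110 cells with exactly 2 cycle genes. The levels of the gating genes follow from the gates themselves, with Vpreb1 at 4289 UMIs per 1e6 of the gate (CPM) in the surrogate light chain gate and 121 in the Rag gate, and Cd74 at 5511 CPM in the MHC class II gate and 258 in the Rag gate. Young replicate 1 held 7 Rag-positive and 9 Cd2/Ms4a1-positive cells, under the minimum of 10, and gave no value there. UMIs are counted from 3′ ends and are not scaled to gene length, so each gene was compared with itself across gates.

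**Figure D1:**
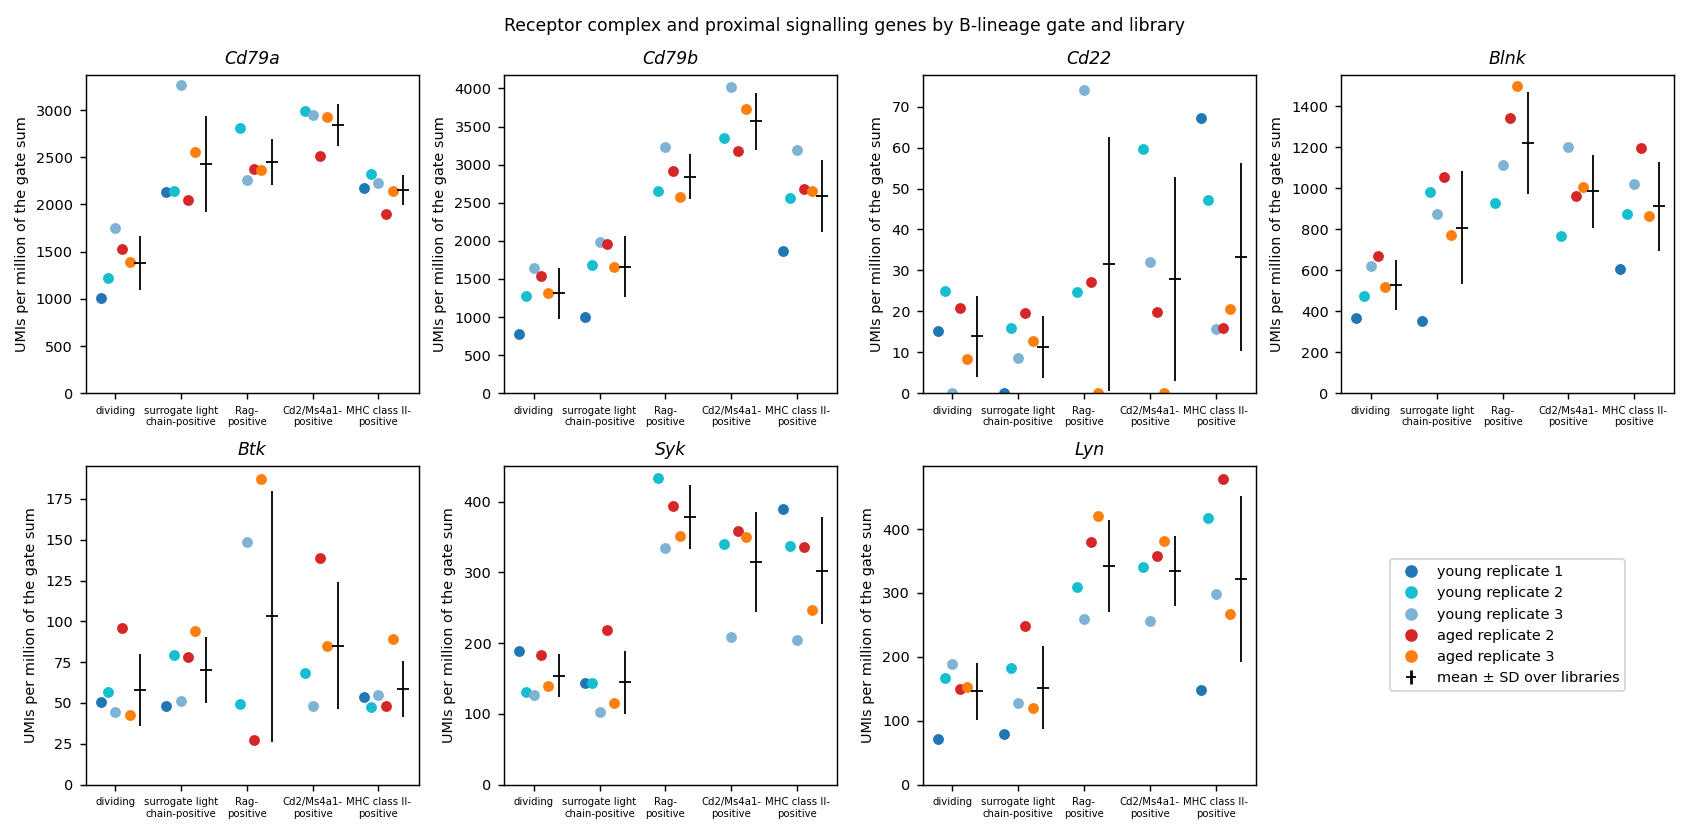
Level in CPM (y axis) of each of the 7 genes in 5 B-lineage gates (x axis), 1 point per library, with the mean over libraries. Syk and Lyn sit lowest in the dividing and surrogate light chain gates, Cd79a sits lowest in the dividing gate, and Cd22 reaches at most 74.1 CPM in any library.

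Cd79a, which encodes the Igα chain, was already at its high level in the surrogate light chain gate. Its levels there were 2130, 2142 and 3264 CPM in young replicates 1 to 3 and 2046 and 2556 in aged replicates 2 and 3. In the Rag gate they were 2813 and 2261 CPM in young replicates 2 and 3 and 2377 and 2363 in the aged libraries. The gates overlapped, and the Rag gate was higher in 2 of 4 libraries. Dividing cells of the young libraries held 1010.3, 1222 and 1749 CPM and those of the aged 1524 and 1393, below every Rag-positive and every MHC class II-positive value. The MHC class II gate lay between 1899 and 2320 CPM over 5 libraries and the Cd2/Ms4a1 gate, the highest by its mean (2844 ± 222, SD, n = 4), between 2513 and 2988.

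Cd79b, which encodes the Igβ chain, followed another course and was higher in the Rag gate than in the surrogate light chain gate. It was at 997, 1688 and 1988 CPM in the surrogate light chain gate of young replicates 1 to 3 and at 1965 and 1654 in aged replicates 2 and 3. In the Rag gate it reached 2652 and 3225 CPM in young replicates 2 and 3 and 2921 and 2574 in the aged libraries. Each Rag-positive value was above every surrogate light chain value. The Cd2/Ms4a1 gate was again highest, at 3567 ± 379 CPM (SD, n = 4), above the Rag gate in 4 of 4 libraries although the ranges overlapped. In dividing cells Cd79b lay between 777 and 1642 CPM, with young replicate 1 the lowest library there, in the surrogate light chain gate and in the MHC class II gate.

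The ratio of Cd79b to Cd79a UMIs within a library gives the same contrast without a library scale. It was 0.468, 0.788 and 0.609 in the surrogate light chain gate of young replicates 1 to 3 and 0.960 and 0.647 in the aged libraries. In the Rag gate young replicates 2 and 3 had ratios of 0.943 and 1.43, and the aged libraries 1.23 and 1.09. Over the 4 libraries with both gates it was 1.17 ± 0.206 against 0.751 ± 0.159 (SD, n = 4), higher in 4 of 4, with a two-sided exact paired permutation p of 0.125 (0.188 adjusted over 3 comparisons). That is the smallest p that 4 libraries allow. The MHC class II gate was higher than the Rag gate in 4 of 4 (1.30 ± 0.153, same exact p), and the dividing gate was higher in 1 of 4 (0.985 ± 0.0526, exact p = 0.25).

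**Figure D2:**
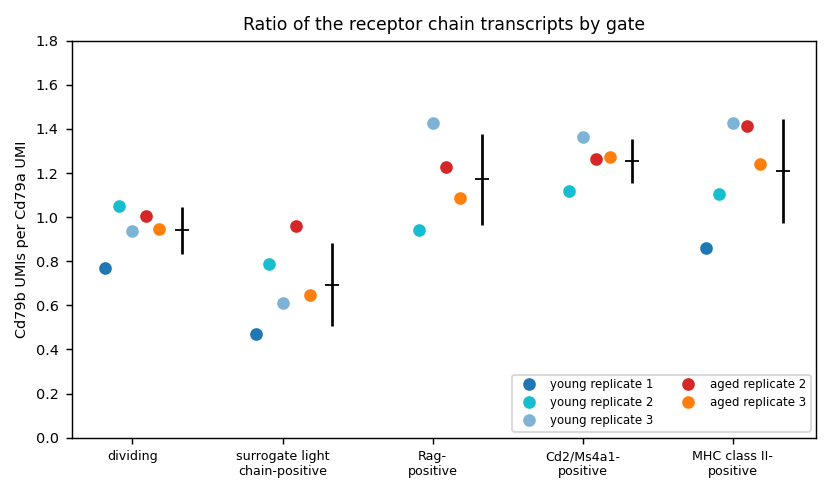
Cd79b UMIs per Cd79a UMI (y axis) in 5 B-lineage gates (x axis), 1 point per library with the mean. The surrogate light chain gate has the lowest mean, 0.695 over 5 libraries, and the Cd2/Ms4a1 gate the highest, 1.26 over 4.

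Cd22, the inhibitory coreceptor, was close to the detection limit. Non-dividing B-lineage cells held 57 UMIs of it in 1116 cells, at 27.6, 35.3 and 16.3 CPM in young replicates 1 to 3 and 18.3 and 10.6 in aged replicates 2 and 3. Its level was listed at 0 in the Rag and Cd2/Ms4a1 gates of aged replicate 3, the surrogate light chain gate of young replicate 1 and the dividing gate of young replicate 3. At this depth no order of gates could be read. One cluster stood out in description. Cluster 9 (81 cells, led by Ms4a1, Cd74 and Fcmr among others) held Cd22 at 115 CPM (95% Poisson interval 72.8 to 172) against 0 to 26.6 CPM in the other 10 clusters. Those 23 UMIs came from young replicate 2 (13), young replicate 1 (7) and aged replicate 3 (3), and the 10 and 5 cells of young replicate 3 and aged replicate 2 held none. The same cluster had Blnk at 429 CPM, below the 1029 CPM of cluster 3 and 1045 CPM of cluster 1. This Blnk level was not particular to cluster 9. Cluster 6 held 437 CPM, and the young replicate 1 cells of cluster 5 held 210. Young replicate 1 gave 22 of the 81 cells of cluster 9 and none of cluster 3. The clusters were built from all other variable genes of these cells, so these levels carry no test.

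Syk, the kinase that binds the phosphorylated chains, was higher in every Rag-positive sum than in any surrogate light chain sum. The surrogate light chain gate held it at 144, 143 and 102 CPM in young replicates 1 to 3 and 218 and 115 in aged replicates 2 and 3. The Rag gate held 434 and 334 CPM in young replicates 2 and 3 and 394 and 351 in the aged libraries. It was 314 ± 70.9 CPM in the Cd2/Ms4a1 gate and 302 ± 75.4 in the MHC class II gate (SD, n = 4 and 5), and these 2 neighbours in the order of levels overlapped. Dividing cells held 126 to 189 CPM, in the range of the surrogate light chain gate.

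Lyn, the Src family kinase, had a like order. Its levels in the surrogate light chain gate were 79.8, 183 and 128 CPM in young replicates 1 to 3 and 249 and 120 in aged replicates 2 and 3. They were 310 and 260 CPM in the Rag gate of young replicates 2 and 3 and 380.4 and 421 in the aged libraries. All 4 Rag-positive values were above all surrogate light chain values. The Cd2/Ms4a1 (334 ± 54.6 CPM) and MHC class II (322 ± 130) gates overlapped with the Rag gate, and dividing cells held 146 ± 44.7 CPM. Young replicate 1 was the lowest library for Lyn in each of the 3 gates where it gave a value, at 71.2 CPM in dividing, 79.8 in surrogate light chain-positive and 148 in MHC class II-positive cells.

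Btk, the Tec family kinase, was sparse and had no order of gates beyond its spread. The means ran from 58.0 ± 22.0 CPM in dividing cells to 103 ± 76.9 in the Rag gate (SD, n = 5 and 4), where all 4 values, from 27.2 to 187 CPM, came from 18 UMIs. All neighbouring gates overlapped.

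Blnk, the adaptor, was at 351, 980 and 877 CPM in the surrogate light chain gate of young replicates 1 to 3 and at 1057 and 774 in aged replicates 2 and 3. The Rag gate held 929 and 1112 CPM in young replicates 2 and 3 and 1345 and 1498 in the aged libraries. The Rag gate was higher in 3 of 4 libraries and the ranges overlapped. Dividing cells held 365 to 668 CPM, below every Rag-positive value, with young replicate 1 the lowest library.

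The test of the Rag-positive against the surrogate light chain-positive gate paired the gates of 4 libraries and fitted 1810 genes, of which 24.4% passed an adjusted p of 0.05 in either direction and 13.4% were higher. Of the 7 genes, 5 had enough counts to be tested, and 4 rose. Syk rose by 1.39 ± 0.25 on the log2 scale (± SE, 2.61-fold, edgeR adjusted p = 7.51e-05), Lyn by 1.03 ± 0.25 (2.05-fold, edgeR adjusted p = 0.00281) and Cd79b by 0.69 ± 0.11 (1.61-fold, edgeR adjusted p = 2.17e-05). For these genes the gates did not overlap, which held for 24.4% of all genes tested. Blnk rose by 0.44 ± 0.16 (edgeR adjusted p = 0.0344), and this call was lost under 11 alternatives (adjusted p of 0.0527 to 0.910), among them leaving out young replicate 2, aged replicate 2 or aged replicate 3. The Lyn call was lost without aged replicate 3 (edgeR adjusted p = 0.0514), with no filter on low counts (edgeR adjusted p = 0.103) and with unthinned gates (edgeR adjusted p = 0.151), and the Cd79b call with no filter (edgeR adjusted p = 0.246). The Syk call was kept under every alternative run. Cd79a differed by 0.08 ± 0.13, with an interval of -0.17 to 0.34 and an edgeR adjusted p of 0.700.

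Per cell, the same gates read differently, because a Rag-positive cell held fewer UMIs in all (1884 ± 386 against 3222 ± 819, SD, n = 4). Cd79a was at 4.66 ± 1.24 UMIs a cell in the Rag gate and 7.81 ± 1.18 in the surrogate light chain gate, higher in the latter in 4 of 4 libraries. Syk was at 0.723 ± 0.220 against 0.480 ± 0.231 UMIs a cell, higher in the Rag gate in 4 of 4 libraries. Cd79b (5.35 ± 1.16 against 5.84 ± 1.33) was higher in the Rag gate in 2 of 4 and Lyn in 3 of 4. Blnk (2.28 ± 0.584 against 3.02 ± 1.05) was higher in the Rag gate in 1 of 4, with a lower mean there. The higher Cd79b level of the Rag gate was therefore a larger share of a smaller RNA count.

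The MHC class II-positive and Rag-positive gates of the same 4 libraries differed in 8.42% of 1247 genes (3.45% higher and 4.97% lower) and in none of the 5 members tested. Every member's gates overlapped, while 9.94% of all genes had gates that did not. By unadjusted p under 0.05, 2 members passed, as did 263 of all 1247 genes, and DESeq2 and limma also called none. Blnk was lower in 4 of 4 libraries (-0.35 ± 0.15, edgeR adjusted p = 0.149), as were Cd79a (-0.25 ± 0.11, edgeR adjusted p = 0.161) and Syk (-0.46 ± 0.24, edgeR adjusted p = 0.243). Cd79b differed by -0.08 ± 0.11 and Lyn by 0.07 ± 0.23. These levels are shares of a gate's RNA. An MHC class II-positive cell held 2552 ± 645 UMIs in all against 1884 ± 386 in a Rag-positive cell (SD, n = 4). Per cell, Cd79a (5.47 ± 1.47 against 4.66 ± 1.24 UMIs) and Cd79b (6.99 ± 1.41 against 5.35 ± 1.16) were higher in the MHC class II gate in 4 of 4 libraries. Blnk and Lyn were higher there per cell in 3 of 4 libraries and Syk in 2 of 4.

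Dividing cells had a lower level of all 5 members tested than Rag-positive cells. Of 2065 genes tested, 48.1% passed in either direction, 25.7% higher and 22.4% lower. Syk fell by 1.39 ± 0.24 on the log2 scale (edgeR adjusted p = 8.11e-07), Blnk by 1.10 ± 0.14 (edgeR adjusted p = 5.35e-10) and Lyn by 1.10 ± 0.24 (edgeR adjusted p = 9.11e-05). Cd79b fell by 0.98 ± 0.11 (edgeR adjusted p = 2.01e-12) and Cd79a by 0.78 ± 0.11 (edgeR adjusted p = 2.56e-08). The gates overlapped for none of the 5, as for 37.5% of all genes tested, and all 5 calls were kept under every alternative run. These are shares of the RNA of a gate. A dividing cell held 5106 ± 1881 UMIs in all against 1884 ± 386 in a Rag-positive cell, and per cell Cd79a (7.27 ± 1.82 against 4.66 ± 1.24 UMIs) and Cd79b (7.23 ± 2.19 against 5.35 ± 1.16) were higher in dividing cells in 4 of 4 libraries. Blnk (2.85 ± 0.889 against 2.28 ± 0.584 UMIs a cell) and Syk (0.746 ± 0.298 against 0.723 ± 0.220) were higher per cell in dividing cells in 3 of 4 libraries and Lyn (0.834 ± 0.305 against 0.647 ± 0.189) in 2 of 4, so none of the 5 had a lower mean per cell.

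**Figure D3:**
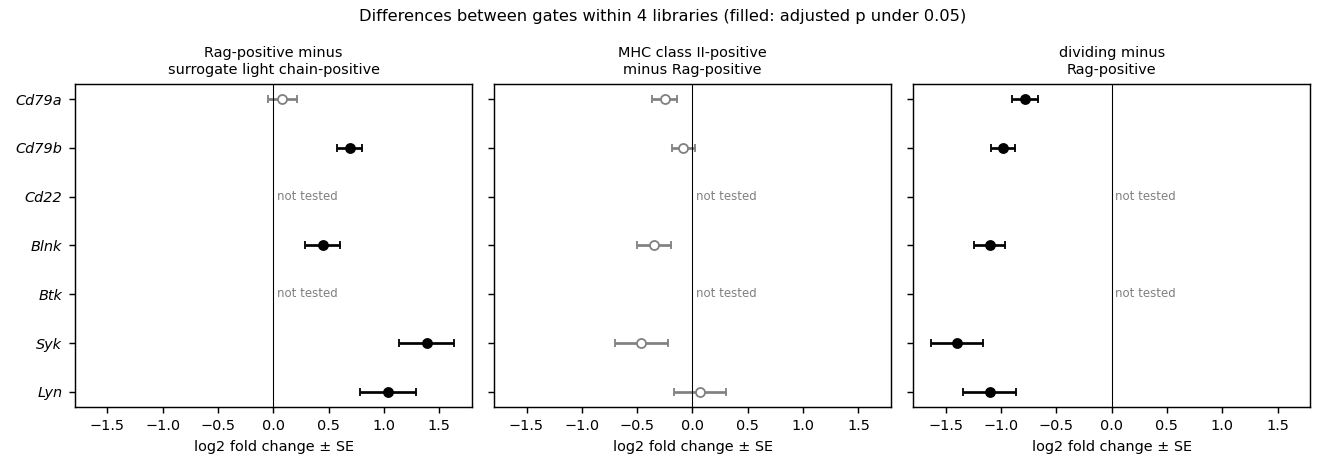
Log2 difference (x axis) of each tested member in the 3 comparisons of gates, with its standard error and 4 libraries in each. Filled points passed an adjusted p of 0.05. All 5 members lie below 0 for dividing against Rag-positive cells, and Cd79a alone among the 5 is unfilled for Rag-positive against surrogate light chain-positive cells.

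Within the dividing gate of young replicate 1, the only library with more than 200 cells of each phase class, Syk was at 149 CPM (126 to 174) in 201 cells with more S phase genes and at 218 CPM (196 to 241) in 307 cells with more G2/M genes. Lyn was at 81.4 CPM (65.1 to 101) and 66.6 CPM (55.0 to 80.1) in the same cells. The Poisson intervals cover counting error only, of a single library, and free RNA was not separated from the cells' own.

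The other genes of receptor signalling were taken from a list of 39. Against the surrogate light chain gate, 13 had enough counts in the Rag gate, 5 rose and 1 fell. Their median difference was 0.51 on the log2 scale, beside 0.00 over all genes tested. Those that rose were Blk, a Src family kinase (1.71 ± 0.33, edgeR adjusted p = 0.000162), Csk, the kinase that restrains Src family kinases (1.17 ± 0.25), the inhibitory coreceptor genes Siglecg (0.96 ± 0.21) and Cd72 (0.74 ± 0.17), and the inhibitory adaptor Dok3 (0.81 ± 0.19, edgeR adjusted p = 0.00222). Cd81, a tetraspanin gene, fell by 0.82 ± 0.28 (edgeR adjusted p = 0.0323), a call lost under 7 alternatives (adjusted p of 0.0588 to 0.323). Among them were leaving out young replicate 2 (edgeR adjusted p = 0.174), young replicate 3 (adjusted p = 0.0651) or aged replicate 3 (adjusted p = 0.0588). The Blk call was kept under every alternative run. With no filter on low counts the calls of Csk, Siglecg, Cd72 and Dok3 were lost (edgeR adjusted p of 0.0530 to 0.331), with unthinned gates those of Csk and Cd72, and without young replicate 2 that of Dok3 (edgeR adjusted p = 0.0676).

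In the MHC class II gate against the Rag gate, 1 of 12 tested list genes rose and none fell. That gene was Cd72 (0.50 ± 0.15, edgeR adjusted p = 0.0168), and its call was lost under 8 alternatives (adjusted p of 0.0553 to 0.459). Among them were leaving out young replicate 2 (adjusted p = 0.459), young replicate 3 (adjusted p = 0.0561) or aged replicate 3 (adjusted p = 0.0607). In dividing against Rag-positive cells, 1 of 13 rose and 7 fell, with a median of -0.61 beside 0.03 over all genes tested. Cd81 rose by 1.03 ± 0.27 (edgeR adjusted p = 0.000876), a call lost with relaxed barcode limits (adjusted p = 0.136) and with unthinned gates (adjusted p = 0.0572). Blk fell by 1.35 ± 0.30, Dok3 by 1.08 ± 0.18, Siglecg by 1.06 ± 0.21, Cd72 by 0.66 ± 0.15 and Ptprc, the gene of CD45, by 1.05 ± 0.35. The Cd72 call was lost with no filter on low counts (edgeR adjusted p = 0.424). The Ptprc call was lost under 6 alternatives (adjusted p of 0.0565 to 0.316), among them leaving out aged replicate 2 (edgeR adjusted p = 0.0582) or aged replicate 3 (edgeR adjusted p = 0.143).

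Across 23 sums of 1 gate in 1 library, the levels of Cd79b followed those of Lyn (Pearson r = 0.851) and Blnk (0.834) more closely than those of Cd79a (0.742). Syk and Lyn had an r of 0.721, and the r of Btk with the other members was at most 0.317. Among 3147 genes with a mean of at least 50 CPM, the most alike were Vgll4 (0.907) and Malat1 (0.866) for Cd79a, Atp1b1 (0.956) and Btg1 (0.955) for Cd79b, and Limd2 (0.938) and Txnip (0.899) for Blnk. Serinc5 (0.913) and Cmah (0.900) were most like Syk, Btg1 (0.898) and Siglecg (0.887) most like Lyn, and Mxd4 (0.715) and Rnf181 (0.684) most like Btk. Cd22 was below the level needed. The sums share libraries and depth, so these values are a description.

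Outside the B lineage the 2 receptor chains and Blnk were at a low level. Blnk was at 54.2 CPM in the 210 other cells and 923 in non-dividing B-lineage cells. In the other cells Cd79a was at 94.4 CPM (81.9 to 108) against 2341 (2284 to 2398) in non-dividing B-lineage cells, and Cd79b at 123 against 2415. At 1000 UMIs a cell, 7.14% of other cells (exact 95% interval 4.05 to 11.5%) and 87.8% of non-dividing B-lineage cells (85.7 to 89.7%) held a Cd79a UMI. Unthinned shares were 47.1% and 96.0%, at median depths of 8406.5 and 2250.5 UMIs. Among 75 neutrophil-like cells (72 of them from young replicate 1), 1.33% held Cd79a and 13.3% Cd79b at 1000 UMIs a cell. No cell held both at that depth, while the unthinned shares were 64.0% for Cd79a and 78.7% for Cd79b. In the Rag gate 83.6% of cells held both chains at 1000 UMIs a cell, against 43.0% of dividing and 69.1% of surrogate light chain-positive cells. These shares pool cells over libraries, so they do not separate gate from library. Young replicate 1 held 603 of the 790 dividing but 7 of the 122 Rag-positive cells.

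The kinases also serve receptors of myeloid cells. Shares of cells below are at 1000 UMIs a cell. Syk was detected in 24.4% of non-dividing B-lineage cells (21.9 to 27.0%) and 10.7% of neutrophil-like cells (4.72 to 19.9%) and Lyn in 24.4% and 5.33% (1.47 to 13.1%). Btk was detected in 7.26% (5.81 to 8.94%) and 2.67% (0.325 to 9.30%), intervals that overlap, and Cd22 in 1.97% (1.24 to 2.97%) and 1.33% (0.0338 to 7.21%). The Cd22 shares could not be told apart at 1000 UMIs a cell. In the full counts Cd22 was at 20.4 CPM (15.5 to 26.5) in non-dividing B-lineage cells and 3.37 CPM (0.918 to 8.63) in neutrophil-like cells, and within young replicate 1 at 27.6 and 3.45 CPM. The neutrophil-like cells came mostly from that library, while the B-lineage shares pool all libraries. In its surrogate light chain gate Syk was detected in 21.6% (9.83 to 38.2%) and Lyn in 13.5% (4.54 to 28.8%). Its neutrophil-like cells had 11.1% (4.92 to 20.7%) and 4.17% (0.868 to 11.7%), intervals that overlap. None of the 18 endothelial-like cells held a Cd22 UMI, which by counting error alone allows up to 16.7% of such cells with a UMI (3 of 18), and Cd79a was detected in 5.56% of them (0.141 to 27.3%). In 5 monocyte-like cells Lyn was at 166 CPM (71.7 to 327, 8 UMIs) and Btk at 83.0 CPM (22.6 to 213, 4 UMIs), within or above the range of B-lineage libraries (98.2 to 316 and 46.0 to 82.0 CPM in non-dividing cells). Btk in neutrophil-like cells was at 29.5 CPM, but at 53.6 CPM (31.2 to 85.8) in the 17 cells of cluster 10 from young replicate 1.

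**Figure D4:**
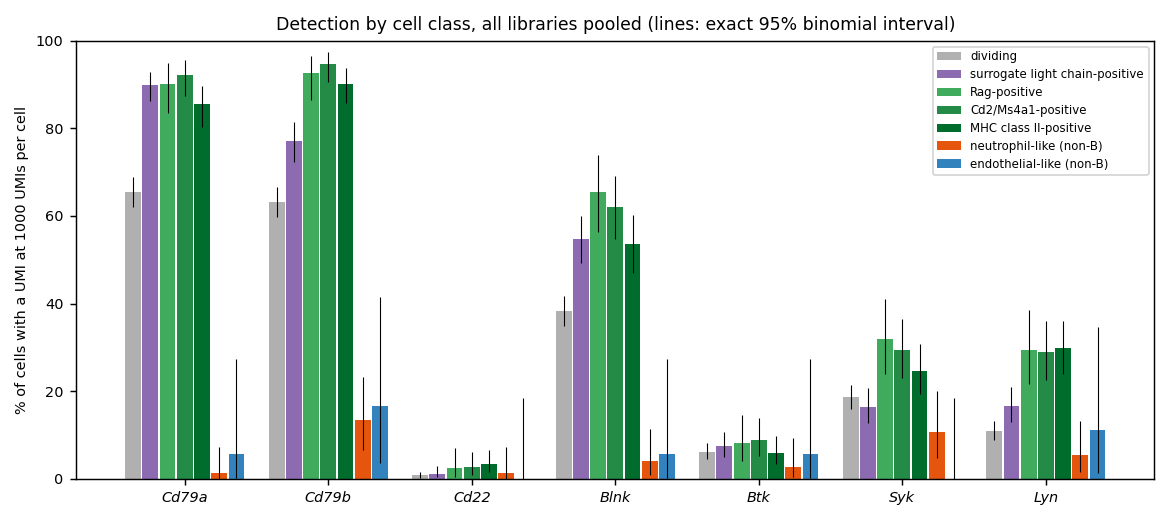
Share of cells with a UMI of each gene (y axis, percent, counts thinned to 1000 UMIs a cell) in B-lineage gates and in neutrophil-like and endothelial-like cells (x axis), with exact 95% binomial intervals. Cd79a and Cd79b separate all B-lineage gates from the other classes, while the intervals of Cd22 and Btk overlap.

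Age was the study's comparison, and no member passed in any class where it was tested. All 7 were tested in non-dividing cells, 6 in dividing cells, and 5 in each of the Rag and MHC class II gates. Cd22 was tested in non-dividing cells alone, and Btk in non-dividing and dividing cells. In non-dividing B-lineage cells (3 young and 2 aged libraries) edgeR called 0% of 6415 genes, with 99 genes at an unadjusted p under 0.05 and none of them a member. Cd79a held 1784, 2459 and 2751 CPM in young replicates 1 to 3 and 2062 and 2476 in aged replicates 2 and 3, and Cd79b 1225, 2602 and 2778 CPM (young) and 2478 and 2479 (aged). Aged libraries lay within the young range for both. The differences (aged minus young) were -0.12 ± 0.30 for Cd79a and 0.10 ± 0.35 for Cd79b, with intervals of -0.71 to 0.48 and -0.58 to 0.78.

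Btk was the 1 member for which both aged libraries lay above all young ones in non-dividing cells, as 15.5% of all genes had groups that did not overlap. Its levels were 46.0, 66.8 and 59.6 CPM in young replicates 1 to 3 and 81.5 and 82.0 in aged replicates 2 and 3, from 196 UMIs, and the difference was 0.41 ± 0.29 (edgeR adjusted p = 1.00). Cd22 differed by -0.92 ± 0.51 (edgeR adjusted p = 1.00), and its groups overlapped. Blnk (460.5, 900.1 and 1016 CPM in the young, 1058 and 945 in the aged), Syk (236, 308 and 199 against 271 and 217) and Lyn (98.2, 316 and 219 against 301 and 242) also overlapped. Their differences were 0.26 ± 0.34, -0.10 ± 0.29 and 0.28 ± 0.37. Young replicate 1 was the lowest library for Cd79a, Cd79b, Blnk, Btk and Lyn, and without it the differences of Cd79b and Lyn were -0.17 and -0.02.

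In dividing cells 0% of 4009 genes passed (178 at an unadjusted p under 0.05) and the 6 members tested differed by -0.04 (Syk) to 0.34 (Btk), each by less than its standard error. The groups overlapped for every member there, and 19.3% of all genes had groups that did not. In the MHC class II gate 0% of 2487 genes passed (76 unadjusted). Both aged libraries had less Cd79a there (1899 and 2144 CPM) than the young ones (2176, 2320 and 2233), a difference of -0.20 ± 0.27, where 18.2% of all genes did not overlap. In the Rag gate, with 2 young and 2 aged libraries, 0.197% of 1014 genes passed and no member. Blnk (0.49 ± 0.26, edgeR adjusted p = 0.996) and Lyn (0.42 ± 0.42) were higher in both aged libraries than in both young ones, where 31.8% of all genes did not overlap.

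**Figure D5:**
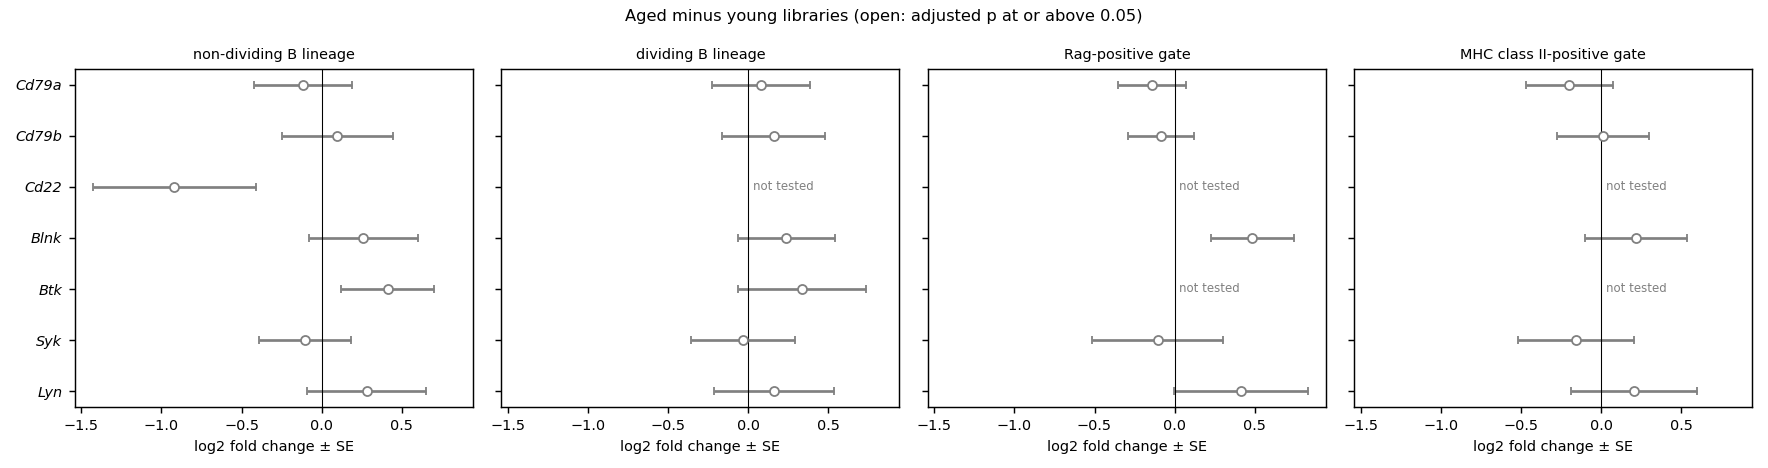
Log2 difference between aged and young libraries (x axis, aged minus young) of each tested member in 4 B-lineage classes, with its standard error. All points are unfilled, which marks an adjusted p over 0.05. Blnk lies above 0 in all 4 classes, from 0.22 to 0.49, and Cd22 has a value in non-dividing cells alone. The classes share libraries, and the non-dividing class contains the Rag and MHC class II gates, so they are not separate evidence.

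No gene of the receptor list passed an adjusted p of 0.05 with age, out of 31 tested in non-dividing cells, 21 in dividing cells, 9 in the Rag gate and 16 in the MHC class II gate. At an unadjusted p under 0.05 there was 1, Cbl, a ubiquitin ligase that restrains receptor kinases, in dividing cells (-1.35 ± 0.54, edgeR adjusted p = 0.997). DESeq2 and limma called no member with age in any class. The smallest p in non-dividing cells belonged to Ptpn6, the phosphatase SHP-1 that CD22 recruits (-0.73 ± 0.35), and Sh3bp5 (-0.62 ± 0.30). Neither passed.

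Markers of other cells moved between the age groups in the same non-dividing sums. The summed erythroid list (8 genes, 2 at 0) was at 50.1 to 114 CPM in young and 167 to 176 in aged libraries, the stromal or bone list (8 genes, 1 at 0) at 9.04 to 160 and 3.04 to 5.62, and the haematopoietic progenitor list (7 genes, 1 at 0) at 18.4 to 79.8 and 95.7 to 119. The neutrophil list (12 genes, none at 0) was highest in young replicate 1, at 227 CPM. Their part in the age differences was not tested. Fewer cells of a stage and less RNA per cell cannot be told apart in sums over a gate. The young replicates held 1 library without Xist UMIs among 3 and the aged ones 1 among 2, so Btk, which is X-linked, was not compared by sex.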

How the data were processed

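The deposited tables hold raw UMI counts per gene and barcode, 1 per library. Per the submitters' processing notes, Cell Ranger, mm10, R 3.5.2, edgeR 3.24.3 and DESeq2 1.22.2 were used. The Cell Ranger version, like the rule behind the deposited barcodes, is not given in the sources used here. Of 3384 barcodes, 2116 had at least 500 genes, 1000 UMIs and at most 10% mitochondrial UMIs. Gene names matched 27645 of 27998 identifiers, and positions are from GENCODE M21.

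Cells were clustered without the 7 genes (scanpy 1.11.5, Leiden, resolution 0.8), and 9 of 11 clusters were B lineage by the summed level of 7 B-lineage genes. Scrublet marked 38 doublets, which stayed in. Other cells were named by at least 3 markers of a list. Counts were summed per library and gate with at least 10 cells and fitted with edgeR 4.0.16 (quasi-likelihood, TMM, filterByExpr, Benjamini-Hochberg over all genes tested, R 4.3.3), with library as a term between gates. The SE is the size of the log2 fold change divided by the square root of F. Fits were tested on simulated data. Poisson and exact binomial intervals (95%) cover counting error only.

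The 7 members were always named. Of the 39 list genes, up to 5 in each direction past the threshold were named, or the 2 of smallest p. Members, lists and gates were chosen with earlier results of these data known, and the motifs and the rule for other cells after seeing the data. Alternatives were DESeq2 1.42.0, limma 3.58.1, upper quartile scaling, no filter on low counts, other barcode filters, doublets left out, unthinned gates, block terms and leaving out each library.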

Additional observations from a re-analysis of the deposited data

Results flagged for a closer look

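The 1268 barcodes outside the quality filter also held the 7 genes, above the 2.71 CPM that 3 counts of their total represent. Cd79a was at 1194 CPM there (1246 in kept barcodes), Cd79b at 1413 (1191), Blnk at 849 (483) and Syk at 286 (172). Lyn was at 144 CPM (132 in kept barcodes), Btk at 84.0 (52.0) and Cd22 at 19.0 (14.8). The pooled kept barcodes are weighted to young replicate 1. Within libraries, Cd79a and Cd79b were lower outside the filter than inside in 4 of 5, and higher in young replicate 1 alone. In young replicate 2 Cd79a was at 886 CPM outside and 1983 inside, and in aged replicate 3 at 1415 and 2029.7. Groups of 3 and 2 libraries were too small to look for outlying values.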

How the results depend on the processing

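The 7 genes gave 531 further values under 16 settings, of which 460 kept their direction and side of the threshold, 56 changed sign and 15 lost their call. The 56 were all of differences that had not passed. All 5 members stayed lower in dividing than in Rag-positive cells under every setting. The number of members higher in the Rag than the surrogate light chain gate (4) was 1 with no filter on low counts, 2 with unthinned gates and 2 to 4 with 1 library left out (2 without aged replicate 3). With no filter the members' differences between those gates moved by -0.35 to -0.30, and between dividing and Rag-positive cells by 0.37 to 0.39, all alike. The cause was not tested for any setting.

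Counts over all genes moved as follows. With DESeq2 they were 224 (441 in edgeR) for the Rag against the surrogate light chain gate, 30 (105) for the MHC class II against the Rag gate, 615 (994) for dividing against Rag-positive cells and 0 (2) for age in the Rag gate. Unthinned gates gave 220 and 61 for the first 2 comparisons. The MHC class II against Rag count was 57 with relaxed barcodes, 58 at most 5% mitochondrial, 32 without the library term and 35 to 96 with 1 library left out (35 without young replicate 2, 50 without young replicate 3, 69 without aged replicate 3). Age in the Rag gate gave 1 with limma, 0 with no filter, 1 with relaxed barcodes, 9 at most 5% mitochondrial, 0 with at least 5 cells per sum, and 0 to 9 with 1 library left out (0 without aged replicate 2, 4 without young replicate 2, 9 without young replicate 3). No filter gave 15 for age in non-dividing cells, 6 in dividing cells and 1 in the MHC class II gate. Age in dividing cells gave 1 with doublets left out and 0 to 3 with 1 library left out (2 without young replicate 3, 3 without aged replicate 3).

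Replicates 2 and 3 share their numbers between age groups. Deviations from the group means correlated at 0.204 for the replicate 2 pair and 0.187 for the replicate 3 pair. The crossed pairs gave -0.187 (young replicate 3 with aged replicate 2) and -0.204 (young replicate 2 with aged replicate 3). Deviations of 2 aged libraries mirror each other, so these values cannot decide whether the numbers mark pairs. Xist UMIs were 0 in both replicate 2 libraries and present in both replicate 3 libraries. The main age fits left the replicate number out, and a replicate block was run as an alternative. The replicate block called 11 genes in non-dividing cells, 3 in dividing cells and 2 in the MHC class II gate, none a member. With the replicate block the values were Cd79b -0.161, Lyn -0.0106 (age in non-dividing cells), and Cd79a -0.0241, Cd79b -0.0485, Syk 0.317, Lyn -0.250 (age in dividing cells), and Cd79b -0.148, Syk 0.0948, Lyn -0.0172 (age in the MHC class II gate).

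The other changes of sign, on the log2 scale, were as follows. With barcodes of at least 300 genes and 500 UMIs the values were Syk 0.0892 (age in non-dividing cells), and Cd72 -0.00385 (age in the Rag gate), and Cd79a 0.0609, Syk 0.170 (age in the MHC class II gate), and Cd79a -0.0378 (Rag against surrogate light chain gate), and Cd79b 0.0133 (MHC class II against Rag gate). With limma the values were Syk 0.0593 (age in dividing cells). With at most 5% mitochondrial UMIs the values were Syk 0.133 (age in dividing cells), and Cd79b 0.155 (age in the Rag gate), and Cd79b -0.148 (age in the MHC class II gate), and Lyn -0.0227 (MHC class II against Rag gate). With gates on unthinned counts the values were Cd79a -0.0270 (age in dividing cells), and Syk 0.116 (age in the Rag gate). With at least 5 cells per sum, chosen after seeing the data, the values were Cd79a 0.0620, Cd79b 0.00184, Syk 0.0431 (age in the Rag gate), and Cd79a -0.0198 (Rag against surrogate light chain gate). With no filter on low counts the values were Cd79b -0.0512 (age in the MHC class II gate), and Cd79a -0.266 (Rag against surrogate light chain gate), and Cd79a 0.0562, Cd79b 0.219 (MHC class II against Rag gate). With upper quartile scaling the values were Cd79a -0.0427 (Rag against surrogate light chain gate). Without the library term the values were Lyn -0.00978 (MHC class II against Rag gate). Leaving out 1 library at a time gave Cd79b -0.167 to 0.315, Lyn -0.0197 to 0.617, Syk -0.242 to 0.0246, Cd79a -0.292 to 0.0622 (age in non-dividing cells), and Cd79a -0.0619 to 0.304, Cd79b -0.0741 to 0.405, Syk -0.184 to 0.292, Lyn -0.250 to 0.405, Btk -0.307 to 0.745 (age in dividing cells), and Cd79a -0.260 to 0.0794, Syk -0.221 to 0.184, Cd72 -0.163 to 0.882, Cd79b -0.212 to 0.0450 (age in the Rag gate), and Cd79b -0.147 to 0.225, Syk -0.387 to 0.0223, Lyn -0.150 to 0.569 (age in the MHC class II gate), and Cd79a -0.146 to 0.220 (Rag against surrogate light chain gate), and Lyn -0.0768 to 0.297 (MHC class II against Rag gate). With 1 library left out of an age group of 2, the lone library is assumed to vary like the others. Depth limits Cd22 and Btk most.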
